A study of Mus musculus with 9 samples.

Results

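The genes of the proteasome subunits were followed in mouse regulatory T cells (Tregs) by RNA-seq after ortho IL-2, after WT IL-2 and without IL-2. Members were the genes named Psma, Psmb, Psmc, Psmd or Psme plus a number, without the immunoproteasome genes Psmb8, Psmb9 and Psmb10. They number 41 of the 23992 gene symbols in the tables. Of these, 40 were abundant enough to be tested and 1, the testis subunit gene Psma8, was not. They comprise 7 alpha ring genes and 7 beta ring genes of the core, 17 genes of the cap, 3 base chaperones, 5 activators, and the tissue-restricted core genes Psma8 and Psmb11.

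The proteasome is the protease that degrades proteins tagged with ubiquitin. Its barrel-shaped core carries the cutting sites on the inner beta rings, and the outer alpha rings form the gate. The cap, made of a base with ATPases and a lid, binds ubiquitin, removes it and threads the substrate in, while activators such as PA28 open the gate without ubiquitin recognition. Activated T cells grow and divide fast and have a high turnover of proteins, and immune cells exchange the standard catalytic subunits for immunoproteasome subunits.

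The cells came from spleens of BALB/c mice, in which Tregs carry green fluorescent protein linked to Foxp3. In all 3 groups they had been transduced with an IL-2 receptor beta chain altered to bind an engineered cytokine and tagged with human EGFR. All had been kept for 48 hours with beads against CD3 and CD28, with human IL-2 at 1000 IU/mL, selected with magnets for the tag, and starved of IL-2 overnight. The ortho IL-2 group then received 2000000 IU/mL of the engineered cytokine for 4 hours, the WT IL-2 group 20000 IU/mL of the natural one, and the no IL-2 group neither, with 3 libraries each. The 2 cytokines were thus given at unmatched doses, and the labels mention no removal of the cells' own receptor chain. No label states that the libraries of a group are separate animals or cultures, so p-values reflect how these libraries vary, possibly for technical reasons alone. The culture steps come from one label, since another describes a co-culture assay.

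Depth ranged from 16581624 to 58182835 reads in genes per library. All 8 T cell and Treg markers were abundant, at a summed 9439 to 9819 CPM (read counts per library size, scaled by TMM) with ortho IL-2, 9696 to 9861 CPM with WT IL-2 and 6390 to 6450 CPM without IL-2. The 4 listed myeloid markers in the tables summed to 7.004 to 7.45 CPM with ortho IL-2, 5.94 to 8.001 CPM with WT IL-2 and 9.79 to 12.6 CPM without IL-2. Markers of B cells, CD8 T and NK cells, and erythroid cells and platelets stayed at or below 11.4 CPM per list in each library. Single T cell markers moved in opposite directions. Il2ra, Tnfrsf18 and Foxp3 rose with each cytokine (log2 fold changes of 2.04, 1.09 and 0.70 for WT IL-2 against no IL-2), Cd4, Cd3g, Ctla4 and Ikzf2 fell (-0.52, -0.47, -0.51 and -0.29), and Cd3e was not called (-0.04). The part of these markers and of the myeloid ones in the results was not tested. Ortho IL-2 library 3 and WT IL-2 library 1 stood apart from their groups. Their counts differed from those of their group's other libraries by a chi-square per degree of freedom of 24.4 to 36.7, against 5.08 to 7.82 for the other pairs within groups. Reads outside genes, meaning those in the authors' depth total but not in the transcripts used, made up 29.4% ± 3.64 with ortho IL-2, 31.7% ± 2.96 with WT IL-2 and 40.5% ± 2.43 without IL-2 (SD, n = 3 each).

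Promoters of 5 members are printed here because they hold a short motif of a known proteasome or growth regulator and belong to genes that behaved differently in the counts that follow. They were taken from RefSeq on GRCm38.p6, from 250 bases before to 50 bases after the gene's start, and are written 5′ to 3′ along the gene. Capitals mark TGACNNNGC, the core of the antioxidant response element bound by NRF1 and NRF2, on either strand in Psmb5, Psmb6, Psmc6 and Psme4. In Psme3 they mark CACGTG, the E-box bound by MYC with MAX, and then CCAAT, the NF-Y box, on the other strand.
Psmb5, minus strand, chr14:54617946-54618245: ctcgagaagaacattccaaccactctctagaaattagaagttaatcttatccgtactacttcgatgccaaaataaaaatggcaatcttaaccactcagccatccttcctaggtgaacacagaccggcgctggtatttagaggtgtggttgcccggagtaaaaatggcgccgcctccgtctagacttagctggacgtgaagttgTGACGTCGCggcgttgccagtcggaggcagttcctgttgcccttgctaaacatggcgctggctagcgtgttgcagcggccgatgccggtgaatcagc
Psmb6, plus strand, chr11:70525107-70525406: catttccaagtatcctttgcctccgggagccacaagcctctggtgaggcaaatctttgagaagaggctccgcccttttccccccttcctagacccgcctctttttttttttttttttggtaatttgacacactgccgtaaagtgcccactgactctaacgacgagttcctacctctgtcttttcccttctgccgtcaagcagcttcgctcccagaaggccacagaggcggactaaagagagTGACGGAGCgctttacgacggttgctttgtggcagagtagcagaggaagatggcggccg
Psmc6, plus strand, chr14:45329574-45329873: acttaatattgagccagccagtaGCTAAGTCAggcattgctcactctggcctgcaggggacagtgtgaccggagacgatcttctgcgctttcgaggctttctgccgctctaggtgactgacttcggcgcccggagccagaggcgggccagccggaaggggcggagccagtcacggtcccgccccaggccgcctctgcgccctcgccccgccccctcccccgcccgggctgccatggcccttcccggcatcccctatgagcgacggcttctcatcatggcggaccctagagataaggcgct
Psme4, plus strand, chr11:30771525-30771824: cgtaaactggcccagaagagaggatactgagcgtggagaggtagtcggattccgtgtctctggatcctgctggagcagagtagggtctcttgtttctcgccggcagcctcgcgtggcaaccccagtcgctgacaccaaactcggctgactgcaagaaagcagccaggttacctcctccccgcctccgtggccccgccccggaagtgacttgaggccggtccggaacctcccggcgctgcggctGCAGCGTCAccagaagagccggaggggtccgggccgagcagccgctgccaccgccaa
Psme3, plus strand, chr11:101315963-101316262: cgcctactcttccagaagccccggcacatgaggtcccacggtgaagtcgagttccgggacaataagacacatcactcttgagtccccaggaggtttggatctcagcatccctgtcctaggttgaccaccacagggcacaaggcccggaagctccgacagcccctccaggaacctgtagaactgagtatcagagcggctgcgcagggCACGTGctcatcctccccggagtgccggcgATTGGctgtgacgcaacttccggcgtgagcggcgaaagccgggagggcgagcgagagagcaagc

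The motif stood at bases -47 to -39 before the start of Psmb5, at -9 to -1 in Psmb6, at -227 to -219 in Psmc6 and across the start, at -7 to 2, in Psme4. Positions count from the RefSeq start of each printed window. RefSeq promoters were found for 34 member genes, 37 promoters in all. Of these, 6 held TGACNNNGC (16.2%, against 12.4% of all 32851 promoters of that length), those of Psmd9 and Psmd12 being the others. Psmd9 and Psmd12 were called in neither comparison with no IL-2. CACGTG was in 3 promoters (8.11% against 7.15%), of Psma4, Psmd9 and Psme3. CCAAT was in 13 (35.1% against 37.4%), and the STAT motif TTCNNNGAA in 1, that of Psmd2 (2.70% against 8.30%). On GRCm38 the gene of Psmb5 spans 54614119 to 54618022 on chromosome 14, that of Psmb6 70525367 to 70527858 on chromosome 11, and that of Psmb7 38588036 to 38644087 on chromosome 2. These spans come from GENCODE, in which Psme4 spans 30771726 to 30880361 on chromosome 11. GENCODE starts of Psmb5, Psmb6, Psmc6 and Psme4 differ from the RefSeq starts, so motif positions shift with the choice. Both strands were searched, none of the 4 motifs contains another, and these matches describe letters only. The printed promoters were picked with the changes of their genes known, so no link of motif to change can be read from them.

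With either cytokine, many proteasome genes were modestly more abundant than without IL-2, and few were less abundant. With ortho IL-2, 20 of the 40 tested genes rose and 4 fell by edgeR's quasi-likelihood test at an adjusted p under 0.05, and 16 did not pass it. The 4 were Psma1, Psme4, Psme2b and Psmb11, and the value of Psmb11 changed sign on adjustment for reads outside genes. Over all 10702 genes tested in that comparison 56.0% were called, 28.5% as higher and 27.4% as lower. With WT IL-2, 20 rose, 1 fell and 19 did not pass, where 47.9% of all genes were called, 25.0% as higher and 22.9% as lower. Both comparisons share the no IL-2 libraries and are therefore not independent of each other.

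The changes were small. The median log2 fold change of the members was 0.13 with ortho IL-2 (1.10-fold), against 0.01 over all genes tested, and 0.15 with WT IL-2 (1.11-fold), also against 0.01. A log2 fold change above 0 was seen for 31 of 40 members with ortho IL-2 and for 33 with WT IL-2, where 51.2% and 51.1% of all genes lay above 0. All 3 ortho IL-2 libraries exceeded all 3 no IL-2 libraries for 23 members (33.9% of all genes) and lay below them for 5 (32.2%, and 66.1% in either direction). For WT IL-2 these counts were 23 (30.3%) and 2 (28.5%, and 58.8% in either direction). In these bulk samples, more transcript in each cell and more cells that express a gene cannot be told apart.

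Summed over the members, the share of all TMM-scaled reads in genes was 0.333%, 0.338% and 0.331% in the ortho IL-2 libraries. With WT IL-2 it was 0.327%, 0.347% and 0.338%, and without IL-2 0.308%, 0.313% and 0.304%. Each of the 6 libraries with cytokine therefore held a larger share than each of the 3 without.

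These counts depend on the scaling and on libraries. If the authors' depth total, which includes reads outside genes, replaces the TMM scaling, the median of all genes shifts to 0.29 with ortho IL-2 and 0.22 with WT IL-2. Then ortho IL-2 had 34 members higher and 1 lower, and WT IL-2 33 and 1, while the members' median stood 0.12 and 0.14 above that of all genes, as under TMM. Of all 10702 genes, 5707 were then called higher and 946 lower with ortho IL-2, and 4630 and 895 with WT IL-2. In a fit adjusted for the share of reads outside genes, ortho IL-2 had 2 members higher and 1 lower, and WT IL-2 4 and 1. Calls fell over all 10702 genes too, to 925 higher and 648 lower with ortho IL-2 and 1217 and 913 with WT IL-2. The members' median was 0.12 with ortho IL-2 and 0.14 with WT IL-2. The share was 25.7% to 34.9% with cytokine and 38.9% to 43.3% without, so this fit can hardly separate it from cytokine. Of the calls, that fit kept Psmd7, Psme3 and Psme2b with each cytokine and Psme2 with WT IL-2, lost all others and added Psmb11 with WT IL-2. With offsets for GC content, ortho IL-2 had 25 members higher and 3 lower, and WT IL-2 27 and 2. All-gene counts were then 3225 higher and 3193 lower with ortho IL-2, and 3153 and 2970 with WT IL-2. Psma3, Psma4, Psmc6, Psmd1, Psmd5, Psmd6, Psmd12 and Psmd14 were higher calls gained in both comparisons, Psma6 and Psmc2 with ortho IL-2 and Psmc1 with WT IL-2. Higher calls lost were Psmb6 in both, Psmc4, Psmd8, Psmd13 and Psme1 with ortho IL-2, and Psmc3 with WT IL-2. Without ortho IL-2 library 3 and WT IL-2 library 1, ortho IL-2 had 21 members higher and 4 lower, and WT IL-2 25 and 1. Over all genes that fit called 3239 higher and 3077 lower with ortho IL-2, and 2910 and 2818 with WT IL-2. Without no IL-2 library 3, WT IL-2 gave 13 higher, where 2270 of all genes were called higher. Members called lower with ortho IL-2 numbered 2 without ortho IL-2 library 3, no IL-2 library 1 or no IL-2 library 2, and with WT IL-2 2 without ortho IL-2 library 1 or WT IL-2 library 2. All-gene lower calls in these fits were 2356, 2284 and 2447 with ortho IL-2, and 2319 and 2269 with WT IL-2, in that order.

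**Figure D1:**
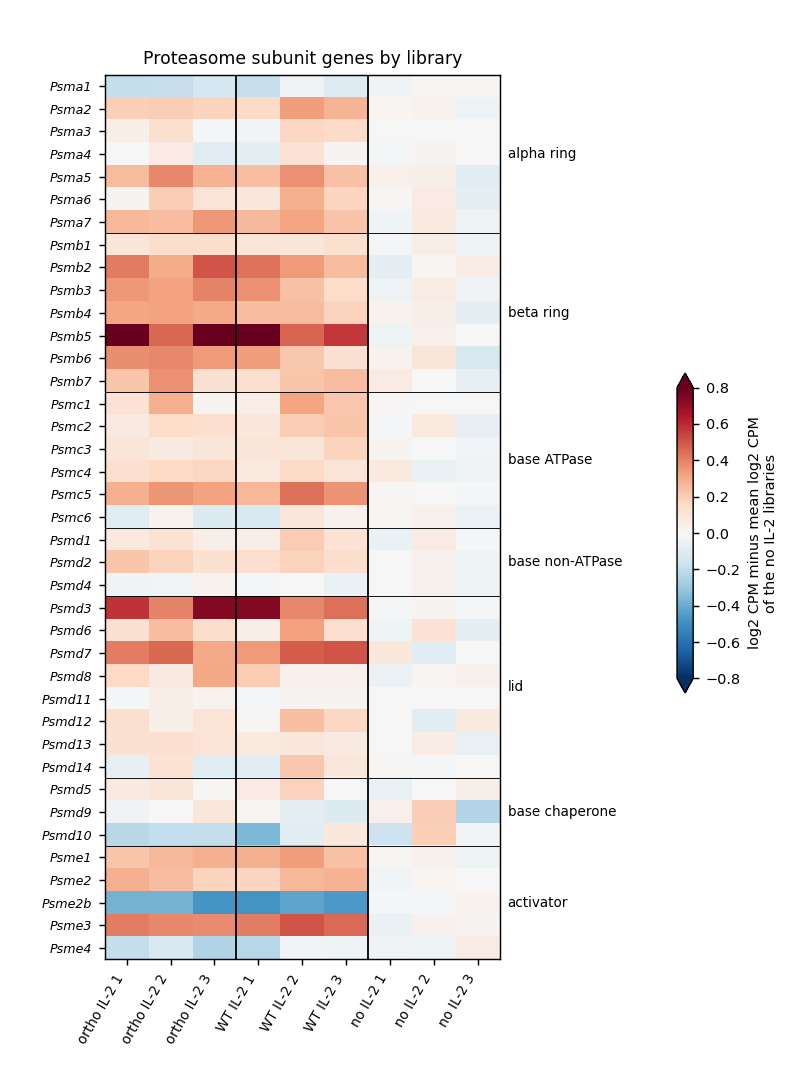
Heatmap of log2 CPM minus the mean log2 CPM of the no IL-2 libraries (colour, clipped at 0.8 in either direction) for 39 members in rows by class, with the 3 libraries of ortho IL-2, WT IL-2 and no IL-2 in columns. Psma8 and Psmb11 are not drawn. The beta ring is red in all 6 libraries with cytokine, Psme2b is blue, and rows such as Psma4, Psmd4 and Psmd11 stay pale.

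The median of these deviations over the 40 members was 0.12, 0.15 and 0.12 in the ortho IL-2 libraries and 0.09, 0.21 and 0.14 in the WT IL-2 libraries. It was 0.00, 0.03 and -0.02 in the no IL-2 libraries. The WT IL-2 libraries thus spread more widely than those of ortho IL-2 in this measure, with library 1 lowest.

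Of the 14 ring genes of the core, 10 rose and 1 fell with ortho IL-2 (median log2 fold change 0.26), and 11 rose and none fell with WT IL-2 (0.22, 1.17-fold). Of the 17 cap genes, 7 rose with ortho IL-2 (median 0.12, 1.08-fold) and 6 with WT IL-2 (0.12, 1.09-fold), and none fell. Over all genes tested, 28.5% were called higher and 27.4% lower with ortho IL-2, and 25.0% and 22.9% with WT IL-2. Whether core and cap differed was not tested.

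All 7 beta ring genes rose with each cytokine, with a median log2 fold change of 0.35 for ortho IL-2 and 0.22 for WT IL-2. Of all genes, 28.5% were called higher with ortho IL-2 and 25.0% with WT IL-2. The catalytic subunit gene Psmb5, for the chymotrypsin-like site, had the largest rise of all members. Its levels were 35.3, 27.6 and 37.6 CPM with ortho IL-2, 36.6, 27.8 and 29.8 CPM with WT IL-2 and 19.5, 20.7 and 20.1 CPM without IL-2. No library with cytokine came down to the no IL-2 range, and the 2 cytokine groups overlapped. The log2 fold changes were 0.74 (SE 0.13, edgeR adjusted p = 0.000936) for ortho IL-2 and 0.64 (SE 0.13, edgeR adjusted p = 0.00249) for WT IL-2, both against no IL-2. Both calls were kept in all 9 fits that leave out 1 library, and were lost in the fit adjusted for reads outside genes, at 0.64 for ortho IL-2 (adjusted p = 0.146, edgeR) and 0.56 for WT IL-2 (adjusted p = 0.112, edgeR). Psmb5 shares exon sequence on its own strand with the microRNA gene Mir686 and has a RefSeq pseudogene named after it, so its reads are uncertain.

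Psmb6 encodes the caspase-like subunit. It had 45.7, 46.2 and 44.6 CPM with ortho IL-2, 44.5, 41.1 and 38.4 CPM with WT IL-2 and 36.0, 37.8 and 32.3 CPM without IL-2. The ortho IL-2 libraries lay closely together and above both other groups, and the lowest WT IL-2 library stood just above the highest no IL-2 library. Fold changes on the log2 scale were 0.36 (SE 0.07, edgeR adjusted p = 0.00216) for ortho IL-2 and 0.22 (SE 0.07, edgeR adjusted p = 0.0284) for WT IL-2, both against no IL-2. Both calls were lost with offsets for GC content, at 0.17 and an adjusted p of 0.0549 for ortho IL-2 and at 0.09 and an adjusted p of 0.263 for WT IL-2 (edgeR). The WT IL-2 call was also lost without WT IL-2 library 1 or 2 or no IL-2 library 1 or 3, over a range of adjusted p from 0.0177 to 0.0982 across the 9 edgeR fits that leave out 1 library.

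Psmb7, the gene of the trypsin-like subunit, reached 71.9, 79.3 and 67.2 CPM with ortho IL-2, 67.5, 72.0 and 73.2 CPM with WT IL-2 and 64.7, 61.6 and 58.9 CPM without IL-2. All 6 libraries with cytokine were higher than the highest without it, by a small step. Fold changes on the log2 scale were 0.23 (SE 0.07, edgeR adjusted p = 0.0148) for ortho IL-2 and 0.20 (SE 0.07, edgeR adjusted p = 0.0344) for WT IL-2, both against no IL-2. The ortho IL-2 call was lost without no IL-2 library 3 (adjusted p = 0.0561, edgeR), and the WT IL-2 call without any 1 of 5 libraries, ortho IL-2 1, WT IL-2 2 or 3 and no IL-2 2 or 3 (highest adjusted p = 0.114, edgeR). Exons of Psmb7 overlap Nek6 on the other strand, and pseudogenes are named after both Psmb6 and Psmb7.

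The remaining beta ring genes, Psmb1 to Psmb4, encode subunits without a cutting site. Among all 7, Psmb1 changed least with WT IL-2, at 138, 143 and 143 CPM with ortho IL-2, 139, 138 and 141 CPM with WT IL-2 and 129, 134 and 126 CPM without IL-2. The groups with cytokine lay above the no IL-2 group by a narrow gap, without overlap. In log2 fold change this was 0.12 (SE 0.04, edgeR adjusted p = 0.0241) for ortho IL-2 and 0.11 (SE 0.04, edgeR adjusted p = 0.049) for WT IL-2, both against no IL-2. The WT IL-2 call of Psmb1 was kept only in the fit without no IL-2 library 2 among the 9 that leave out 1 library, and the ortho IL-2 call was lost in 4 of these. Psmb2, Psmb3 and Psmb4 rose by 0.41, 0.35 and 0.31 in log2 fold change with ortho IL-2, and by 0.35, 0.25 and 0.22 with WT IL-2, and were called in each of the 9 fits.

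**Figure D2:**
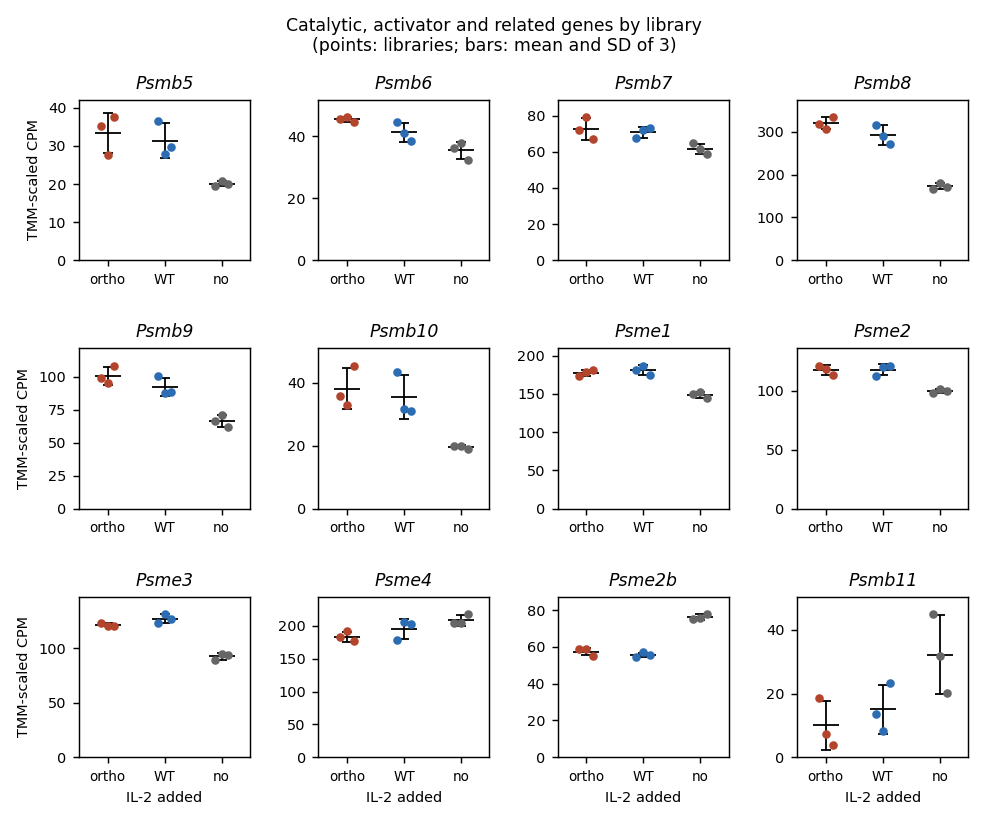
TMM-scaled CPM of the catalytic genes Psmb5, Psmb6 and Psmb7, their immunoproteasome counterparts Psmb8, Psmb9 and Psmb10, the activator genes and Psmb11, on axes that start at 0. Points are libraries of ortho IL-2, WT IL-2 and no IL-2 from left to right, and bars show mean and SD of 3. Psmb5 averaged 33.5 CPM with ortho IL-2, 31.4 CPM with WT IL-2 and 20.1 CPM without IL-2, while Psme2b is highest without IL-2.

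The alpha ring genes, which shape the gate and the docking surface of the core, were less uniform. With ortho IL-2, Psma2, Psma5 and Psma7 rose, Psma1 fell, and Psma3, Psma4 and Psma6 did not pass. With WT IL-2, Psma2, Psma5, Psma6 and Psma7 rose, and Psma1, Psma3 and Psma4 did not pass. Higher calls were thus 3 of 7 with ortho IL-2 and 4 of 7 with WT IL-2, where 28.5% and 25.0% of all genes were called higher. Psma2 had a log2 fold change of 0.19 for ortho IL-2 (SE 0.05) and 0.25 for WT IL-2 (SE 0.05), and Psma7 one of 0.29 for ortho IL-2 (SE 0.05) and 0.27 for WT IL-2 (SE 0.05). For Psma3 it was 0.05 for ortho IL-2 (SE 0.06) and 0.10 for WT IL-2 (SE 0.06). With GC offsets Psma3 was at 0.29 for ortho IL-2 (adjusted p = 3.89e-05, edgeR) and 0.25 for WT IL-2 (adjusted p = 0.0001, edgeR). For Psma6 it was 0.11 for ortho IL-2 (SE 0.07) and 0.18 for WT IL-2 (SE 0.07), where the WT IL-2 call was lost in 6 of the 9 fits that leave out 1 library. The median log2 fold change of the ring was 0.11 with ortho IL-2 and 0.18 with WT IL-2.

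Psma5 had the largest rise of the ring with WT IL-2, with 46.3, 50.6 and 47.2 CPM with ortho IL-2, 45.9, 49.9 and 45.6 CPM with WT IL-2 and 39.9, 40.1 and 36.6 CPM without IL-2. The 6 libraries with cytokine were all above the highest no IL-2 library, and the 2 cytokine groups overlapped. The log2 changes came to 0.30 (SE 0.06, edgeR adjusted p = 0.00245) for ortho IL-2 and 0.28 (SE 0.06, edgeR adjusted p = 0.00448) for WT IL-2, both against no IL-2. Its exons overlap an antisense gene, and RefSeq names a pseudogene after it.

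Psma1 went the other way from most of its ring. It had 83.7, 84.1 and 86.8 CPM with ortho IL-2, 84.4, 93.8 and 89.1 CPM with WT IL-2 and 93.9, 96.8 and 96.4 CPM without IL-2. All 6 libraries with cytokine lay below the 3 without, WT IL-2 library 2 by the least. The log2 fold changes were -0.17 (SE 0.05, edgeR adjusted p = 0.0129) for ortho IL-2 and -0.10 (SE 0.05, edgeR adjusted p = 0.102) for WT IL-2, both against no IL-2. The fall with ortho IL-2 was kept in all 9 fits that leave out 1 library. It was lost with GC offsets (-0.03, adjusted p = 0.610, edgeR), and with the authors' depth total the value turned to 0.11, below that fit's median of 0.29 over all genes. The call was also lost with no filter on low values (-0.10, adjusted p = 0.228, edgeR).

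Psma4 showed values within the spread of the groups, with 136, 142 and 128 CPM with ortho IL-2, 129, 147 and 138 CPM with WT IL-2 and 134, 138 and 135 CPM without IL-2. All 3 groups overlapped, and the log2 fold changes were -0.01 for ortho IL-2 (SE 0.06) and 0.02 for WT IL-2 (SE 0.06), with 95% intervals of -0.13 to 0.12 for ortho IL-2 and -0.10 to 0.15 for WT IL-2. With GC offsets Psma4 was called higher in both comparisons (0.11 with ortho IL-2). Psma4 overlaps a coding gene on the other strand.

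The tissue-restricted core genes were low per transcript length, with means without IL-2 of 0.0119 RPKM (reads per transcript length and depth) for Psma8 and 4.41 RPKM for Psmb11. Psma8, known from testis, had 8 reads over all 9 libraries and was not tested. Psmb11, the catalytic subunit gene known from cortical epithelium of the thymus, had 18.7, 7.28 and 3.92 CPM with ortho IL-2, 13.6, 8.14 and 23.3 CPM with WT IL-2 and 45.0, 31.7 and 20.1 CPM without IL-2. Its libraries spread widely within each group, the 3 ortho IL-2 libraries lay below all no IL-2 libraries, and WT IL-2 library 3 overlapped the no IL-2 group. The log2 fold changes were -1.71 (SE 0.55, edgeR adjusted p = 0.025) for ortho IL-2 and -1.12 (SE 0.54, edgeR adjusted p = 0.114) for WT IL-2, both against no IL-2. The ortho IL-2 call was lost without ortho IL-2 library 2 or 3 or no IL-2 library 1 or 2 (highest adjusted p = 0.0949, edgeR).

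Psmb11 also varied with the share of reads outside genes. That share was 33.0%, 29.5% and 25.7% in ortho IL-2 libraries 1 to 3, 31.1%, 29.1% and 34.9% with WT IL-2, and 43.3%, 38.9% and 39.3% without IL-2. Within the groups, the library with the largest share also had the most Psmb11. Adjusted for that share, the log2 fold change turned to 0.97 with ortho IL-2 (adjusted p = 0.135, edgeR) and to 1.08 with WT IL-2 (adjusted p = 0.0467, edgeR), so the sign for Psmb11 depends on that adjustment.

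In the base of the cap, 6 ATPases form the ring that unfolds substrates. With ortho IL-2, Psmc4 and Psmc5 rose, and Psmc1, Psmc2, Psmc3 and Psmc6 did not pass. With WT IL-2, Psmc2, Psmc3 and Psmc5 rose, and Psmc1, Psmc4 and Psmc6 did not pass. That made 2 of 6 higher with ortho IL-2, near the 28.5% of all genes, and 3 of 6 with WT IL-2, against 25.0%. In log2 fold change, Psmc1 was at 0.14 for ortho IL-2 (SE 0.08) and 0.20 for WT IL-2 (SE 0.08), Psmc2 at 0.12 for ortho IL-2 (SE 0.06) and 0.17 for WT IL-2 (SE 0.06), Psmc3 at 0.09 for ortho IL-2 (SE 0.04) and 0.12 for WT IL-2 (SE 0.04) and Psmc4 at 0.15 for ortho IL-2 (SE 0.05) and 0.11 for WT IL-2 (SE 0.05). The median was 0.13 with ortho IL-2 and 0.15 with WT IL-2.

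Psmc5 had the largest value of these 6, with 44.8, 47.1 and 46.0 CPM with ortho IL-2, 44.2, 49.9 and 47.3 CPM with WT IL-2 and 37.1, 36.8 and 36.6 CPM without IL-2. The no IL-2 libraries lay within a narrow range, and all 6 libraries with cytokine stood clear of it. On the log2 scale the changes were 0.32 (SE 0.06, edgeR adjusted p = 0.000903) for ortho IL-2 and 0.36 (SE 0.05, edgeR adjusted p = 0.000484) for WT IL-2, both against no IL-2. These calls were kept in all 9 fits that leave out 1 library. They were lost after adjustment for reads outside genes, at 0.27 for ortho IL-2 (adjusted p = 0.188, edgeR) and 0.32 for WT IL-2 (adjusted p = 0.0591, edgeR).

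Psmc6 had 125, 136 and 124 CPM with ortho IL-2, 123, 143 and 137 CPM with WT IL-2 and 135, 137 and 129.6 CPM without IL-2. The groups overlapped, and the log2 fold changes were -0.06 for ortho IL-2 (SE 0.06) and 0.01 for WT IL-2 (SE 0.06), with intervals of -0.20 to 0.08 for ortho IL-2 and -0.13 to 0.14 for WT IL-2. With GC offsets it was called higher in both comparisons, at 0.30 for ortho IL-2. The calls of Psmc2, Psmc3 and Psmc4 were each lost in 4 or 5 of the 9 fits that leave out 1 library. GC offsets ended the ortho IL-2 call of Psmc4 (0.0384, adjusted p = 0.577, edgeR) and the WT IL-2 call of Psmc3 (0.0194, adjusted p = 0.799, edgeR), and Psmc3 was then at -0.0754 with ortho IL-2.

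Of the other base genes, Psmd1 and Psmd2 encode the scaffold subunits and Psmd4 a ubiquitin receptor. Psmd2 rose, with 208, 202 and 194 CPM with ortho IL-2, 196, 203 and 197 CPM with WT IL-2 and 179, 183 and 174 CPM without IL-2. The cytokine groups overlapped each other but not the no IL-2 group. Log2 fold changes were 0.17 (SE 0.04, edgeR adjusted p = 0.00744) for ortho IL-2 and 0.15 (SE 0.04, edgeR adjusted p = 0.0147) for WT IL-2, both against no IL-2, and the WT IL-2 call was lost without no IL-2 library 1 or 3 (highest adjusted p = 0.0595, edgeR).

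Psmd4 had 91.5, 91.9 and 95.3 CPM with ortho IL-2, 92.2, 93.4 and 89.8 CPM with WT IL-2 and 93.5, 95.5 and 91.1 CPM without IL-2. The groups overlapped, and Psmd4 was called in neither comparison, with log2 fold changes of -0.01 for ortho IL-2 (SE 0.04) and -0.02 for WT IL-2 (SE 0.04) and intervals of -0.10 to 0.09 for ortho IL-2 and -0.12 to 0.07 for WT IL-2. With GC offsets Psmd4 was called lower in both. Psmd1, whose exons overlap genes on both strands, did not pass either, at 0.08 with ortho IL-2 and 0.12 with WT IL-2.

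The lid removes ubiquitin from substrates. With ortho IL-2, Psmd3, Psmd7, Psmd8 and Psmd13 rose, and Psmd6, Psmd11, Psmd12 and Psmd14 did not pass. With WT IL-2, Psmd3 and Psmd7 rose, and Psmd6, Psmd8, Psmd11, Psmd12, Psmd13 and Psmd14 did not pass. This was 4 of 8 higher with ortho IL-2, against 28.5% of all genes, and 2 of 8 with WT IL-2, near the 25.0% of all genes. Psmd6 had a log2 fold change of 0.16 for ortho IL-2 (SE 0.08) and 0.17 for WT IL-2 (SE 0.08), and Psmd12 one of 0.10 for ortho IL-2 (SE 0.07) and 0.14 for WT IL-2 (SE 0.07). For Psmd8 it was 0.19 for ortho IL-2 (SE 0.07) and 0.10 for WT IL-2 (SE 0.07), and for Psmd13 0.12 for ortho IL-2 (SE 0.04) and 0.08 for WT IL-2 (SE 0.04). Median log2 fold changes were 0.14 with ortho IL-2 and 0.12 with WT IL-2.

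Psmd3, a scaffold subunit of the lid, changed most, with 65.6, 57.9 and 73.2 CPM with ortho IL-2, 73.2, 57.3 and 59.6 CPM with WT IL-2 and 43.7, 44.7 and 43.5 CPM without IL-2. The no IL-2 libraries agreed closely, the cytokine libraries spread over a wide range above them, and the highest values came from ortho IL-2 library 3 and WT IL-2 library 1. Fold changes on the log2 scale were 0.58 (SE 0.10, edgeR adjusted p = 0.00116) for ortho IL-2 and 0.53 (SE 0.10, edgeR adjusted p = 0.00227) for WT IL-2, both against no IL-2. With GC offsets they were 0.31 for ortho IL-2 and 0.35 for WT IL-2. Exons of Psmd3 overlap a non-coding gene on the other strand.

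Psmd7 pairs with the deubiquitinase subunit of the lid and had 67.1, 69.6 and 62.5 CPM with ortho IL-2, 64.0, 70.6 and 71.7 CPM with WT IL-2 and 53.7, 47.8 and 50.5 CPM without IL-2. All 6 libraries with cytokine were clear of the no IL-2 libraries. The log2 fold changes were 0.39 (SE 0.07, edgeR adjusted p = 0.000842) for ortho IL-2 and 0.44 (SE 0.07, edgeR adjusted p = 0.000402) for WT IL-2, both against no IL-2. Adjusted for reads outside genes both calls were kept, at 0.57 for ortho IL-2 (adjusted p = 0.016, edgeR) and 0.58 for WT IL-2 (adjusted p = 0.00432, edgeR).

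Psmd14, the gene of the deubiquitinase itself, had 88.4, 100.3 and 86.6 CPM with ortho IL-2, 87.4, 107 and 98.7 CPM with WT IL-2 and 93.3, 92.0 and 92.6 CPM without IL-2. The no IL-2 values lay inside the range of each cytokine group, and it was not called, at -0.02 for ortho IL-2 (SE 0.08) and 0.08 for WT IL-2 (SE 0.08) in log2 fold change. With GC offsets it was called higher in both comparisons. Psmd11, a lid scaffold subunit, had 67.9, 71.0 and 69.9 CPM with ortho IL-2, 68.1, 69.4 and 69.5 CPM with WT IL-2 and 68.4, 68.6 and 68.4 CPM without IL-2. This was the member with the least change of the lid under WT IL-2, at 0.01 (interval -0.08 to 0.10), and 0.02 with ortho IL-2 (interval -0.07 to 0.11). The calls of Psmd8 and Psmd13 with ortho IL-2 were lost in 6 and 7 of the 9 fits that leave out 1 library, and exons of Psmd13 overlap Sirt3 on the other strand. GC offsets ended both calls, at 0.0704 for Psmd8 (adjusted p = 0.152, edgeR) and 0.00339 for Psmd13 (adjusted p = 0.959, edgeR), and DESeq2 did not call Psmd13 (0.10, adjusted p = 0.0915).

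The 3 base chaperones, which help the ATPase ring assemble and are not part of the finished particle, were called in neither comparison. Psmd5 had 41.6, 42.4 and 39.8 CPM with ortho IL-2, 41.4, 45.0 and 39.5 CPM with WT IL-2 and 38.2, 39.6 and 41.0 CPM without IL-2, and the log2 fold changes were 0.06 for ortho IL-2 (SE 0.06) and 0.08 for WT IL-2 (SE 0.06). Psmd10 had 17.5, 17.8 and 17.9 CPM with ortho IL-2, 15.9, 19.1 and 21.6 CPM with WT IL-2 and 18.2, 23.3 and 20.1 CPM without IL-2, with -0.21 for ortho IL-2 (SE 0.12) and -0.12 for WT IL-2 (SE 0.12). The ortho IL-2 libraries of Psmd10 lay just below those without IL-2, and the WT IL-2 libraries overlapped them. Its intervals of -0.48 to 0.06 for ortho IL-2 and -0.39 to 0.15 for WT IL-2 include 0. Psmd9 was at 0.00 with ortho IL-2 and -0.08 with WT IL-2, at the lowest level of the 3. Unadjusted p was under 0.05 for 0 of them in either comparison, and DESeq2 called 0. With GC offsets Psmd5 was called higher, at 0.17 for ortho IL-2 (adjusted p = 0.0184, edgeR) and 0.15 for WT IL-2 (adjusted p = 0.0352, edgeR). With the authors' depth total it was also called higher, at 0.34 for ortho IL-2 (adjusted p = 0.00774, edgeR) and 0.30 for WT IL-2 (adjusted p = 0.0182, edgeR). That scaling put the median of all genes at 0.29 with ortho IL-2 and 0.22 with WT IL-2, close to these Psmd5 values.

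**Figure D3:**
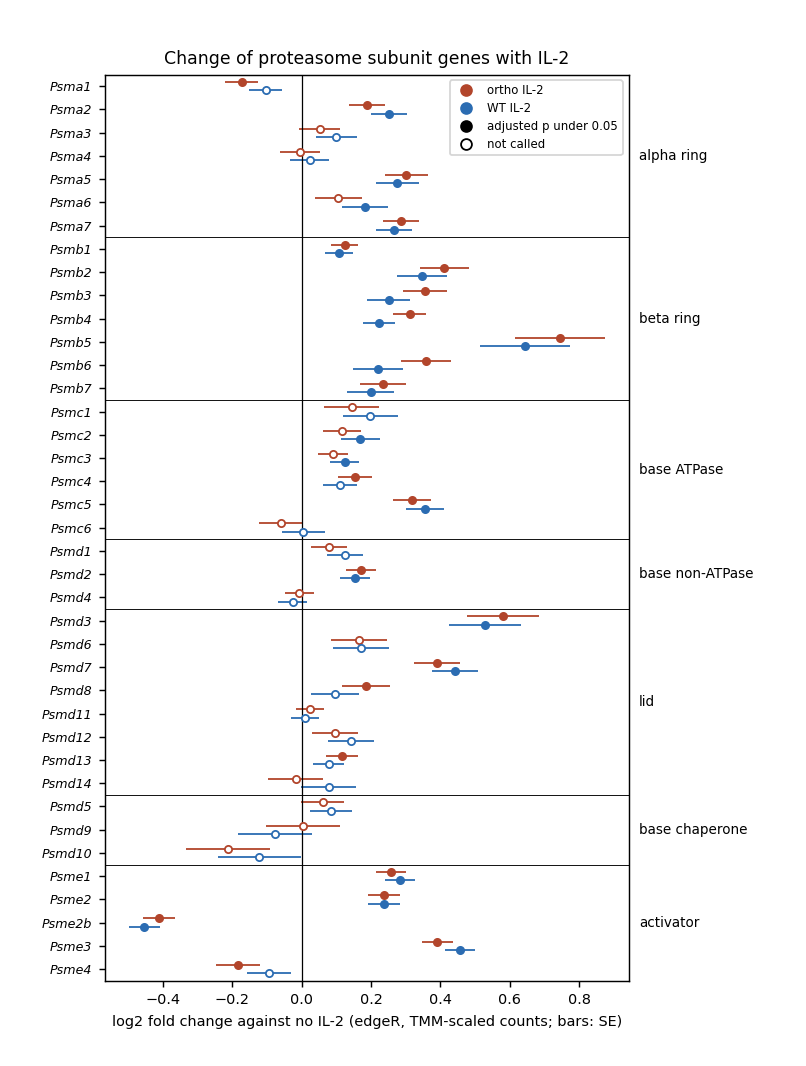
Log2 fold change against no IL-2 for 39 members by class, with ortho IL-2 in red above WT IL-2 in blue. Bars are standard errors from edgeR, and filled points have an adjusted p under 0.05. Every beta ring point is filled and right of 0, the base chaperones are open, and Psme2b lies farthest left at -0.41 for ortho IL-2 and -0.45 for WT IL-2.

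Of the 5 activator genes, 3 rose and 2 fell with ortho IL-2, and 3 rose and 1 fell with WT IL-2. Among all genes, 28.5% were called higher and 27.4% lower with ortho IL-2, and 25.0% and 22.9% with WT IL-2. Psme3 encodes PA28 gamma, the nuclear activator. It had 123, 121 and 121 CPM with ortho IL-2, 123, 131 and 127 CPM with WT IL-2 and 89.2, 94.9 and 93.9 CPM without IL-2. The cytokine groups stood well above the no IL-2 group, with little spread. On the log2 scale the changes were 0.39 (SE 0.04, edgeR adjusted p = 5.47e-05) for ortho IL-2 and 0.46 (SE 0.04, edgeR adjusted p = 1.89e-05) for WT IL-2, both against no IL-2, or 1.31-fold and 1.37-fold in that order. Psme3 lies on chromosome 11, 101316213 to 101323537. These calls were kept in all 9 fits that leave out 1 library and after adjustment for reads outside genes (highest adjusted p = 0.0427, edgeR).

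Psme1 and Psme2 encode PA28 alpha and beta, which form the interferon-inducible activator linked to antigen processing. Psme1 had 174, 179 and 181 CPM with ortho IL-2, 181, 187 and 175 CPM with WT IL-2 and 149, 152 and 145 CPM without IL-2. Psme2 had 121, 118 and 113 CPM with ortho IL-2, 112, 119.7 and 121 CPM with WT IL-2 and 98.2, 101 and 99.9 CPM without IL-2. For both genes the cytokine groups overlapped each other and lay above the no IL-2 group. Log2 fold changes of Psme1 were 0.26 (SE 0.04, edgeR adjusted p = 0.000756) for ortho IL-2 and 0.28 (SE 0.04, edgeR adjusted p = 0.000433) for WT IL-2, both against no IL-2. Those of Psme2 were 0.24 (SE 0.05, edgeR adjusted p = 0.00194) for ortho IL-2 and 0.24 (SE 0.05, edgeR adjusted p = 0.00213) for WT IL-2, both against no IL-2. Psme1 overlaps Emc9 on the other strand, and its ortho IL-2 call was lost with GC offsets (0.10, adjusted p = 0.126, edgeR). After adjustment for reads outside genes both Psme1 calls were lost, at 0.16 for ortho IL-2 (adjusted p = 0.315, edgeR) and 0.21 for WT IL-2 (adjusted p = 0.101, edgeR). The Psme2 call was then lost with ortho IL-2 (0.31, adjusted p = 0.0694, edgeR) and kept with WT IL-2 (0.30, adjusted p = 0.0362, edgeR).

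Psme4 encodes PA200, the large nuclear activator. It had 183, 192 and 176 CPM with ortho IL-2, 178, 206 and 204 CPM with WT IL-2 and 204, 204 and 218 CPM without IL-2. The ortho IL-2 libraries were all below the no IL-2 libraries, whereas those of WT IL-2 overlapped both. Log2 fold changes were -0.18 (SE 0.06, edgeR adjusted p = 0.0312) for ortho IL-2 and -0.09 (SE 0.06, edgeR adjusted p = 0.246) for WT IL-2, both against no IL-2. The fall with ortho IL-2 was lost without ortho IL-2 library 1 or 3 or any 1 of the no IL-2 libraries (highest adjusted p = 0.110, edgeR), and with GC offsets (-0.04, adjusted p = 0.277, edgeR). With the authors' depth total the value was 0.09, below that fit's median of 0.29 over all genes.

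Psme2b, annotated as a copy of the PA28 beta gene, fell. It had 58.6, 58.6 and 55.0 CPM with ortho IL-2, 54.7, 57.0 and 55.5 CPM with WT IL-2 and 75.4, 75.6 and 77.9 CPM without IL-2. The cytokine groups overlapped each other and lay far below the no IL-2 libraries. Log2 fold changes were -0.41 (SE 0.05, edgeR adjusted p = 4.76e-05) for ortho IL-2 and -0.45 (SE 0.05, edgeR adjusted p = 2.48e-05) for WT IL-2, both against no IL-2. The gene lies on chromosome 11, 48945354 to 48946190 on GRCm38, and its exons overlap those of 9930111J21Rik1 on the same strand, so reads there cannot be assigned to either. The overlapping gene had 198, 197 and 182 CPM with ortho IL-2, 180.3, 204 and 196 CPM with WT IL-2 and 327, 334 and 352 CPM without IL-2, with log2 fold changes of -0.81 for ortho IL-2 and -0.80 for WT IL-2. It was lower in the same libraries, and its part in the value of Psme2b was not tested. With the authors' depth total the Psme2b value for ortho IL-2 was -0.13 (adjusted p = 0.152, edgeR), where the median over all genes was 0.29.

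Levels per transcript length are deposited RPKM, reads per transcript length and depth, whose depth term includes the reads outside genes. Levels without IL-2 therefore carry the scaling difference described above. Psme1 had the highest level in each group, at 129 ± 10.7 RPKM with ortho IL-2, 126 ± 9.99 RPKM with WT IL-2 and 89.2 ± 4.41 RPKM without IL-2 (SD, n = 3). Psmb1 came next in each group, at 96.9 ± 7.51 RPKM with ortho IL-2, 91.6 ± 3.49 RPKM with WT IL-2 and 73.3 ± 4.42 RPKM without IL-2. Psme1 and Psmb1 differed by more than the larger of their SDs in each group. Of the 40 pairs of neighbours in the order of levels, 28 differed by less than the larger SD with ortho IL-2, 29 with WT IL-2 and 27 without IL-2. Among these were Psmb1 and Psme2 with both cytokines, and Psmb1 and Psma4 without IL-2.

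The lowest were the base chaperones and the tissue-restricted genes. Psmd9 had 3.43 ± 0.367 RPKM with ortho IL-2, 3.11 ± 0.268 RPKM with WT IL-2 and 2.81 ± 0.442 RPKM without IL-2. Median levels per class with ortho IL-2, WT IL-2 and no IL-2 were 67.4, 65.3 and 46.8 RPKM in the alpha ring and 53.3, 49.7 and 37.3 RPKM in the beta ring. They were 35.2, 34.7 and 27.1 RPKM for the base ATPases, 28.9, 28.1 and 21.7 RPKM for the lid, and 8.64, 8.78 and 8.28 RPKM for the base chaperones. The ratio of the cap's median RPKM to that of the core was 0.532 ± 0.004 with ortho IL-2, 0.574 ± 0.051 with WT IL-2 and 0.563 ± 0.018 without IL-2 (SD, n = 3). By library it was 0.529, 0.530 and 0.537 with ortho IL-2, 0.516, 0.606 and 0.602 with WT IL-2, and 0.559, 0.548 and 0.582 without IL-2. The ortho IL-2 ratios thus lay below those without IL-2, and the WT IL-2 ratios overlapped both groups. The means differed by less than the SD of the WT IL-2 libraries, and a difference in this ratio was not tested.

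**Figure D4:**
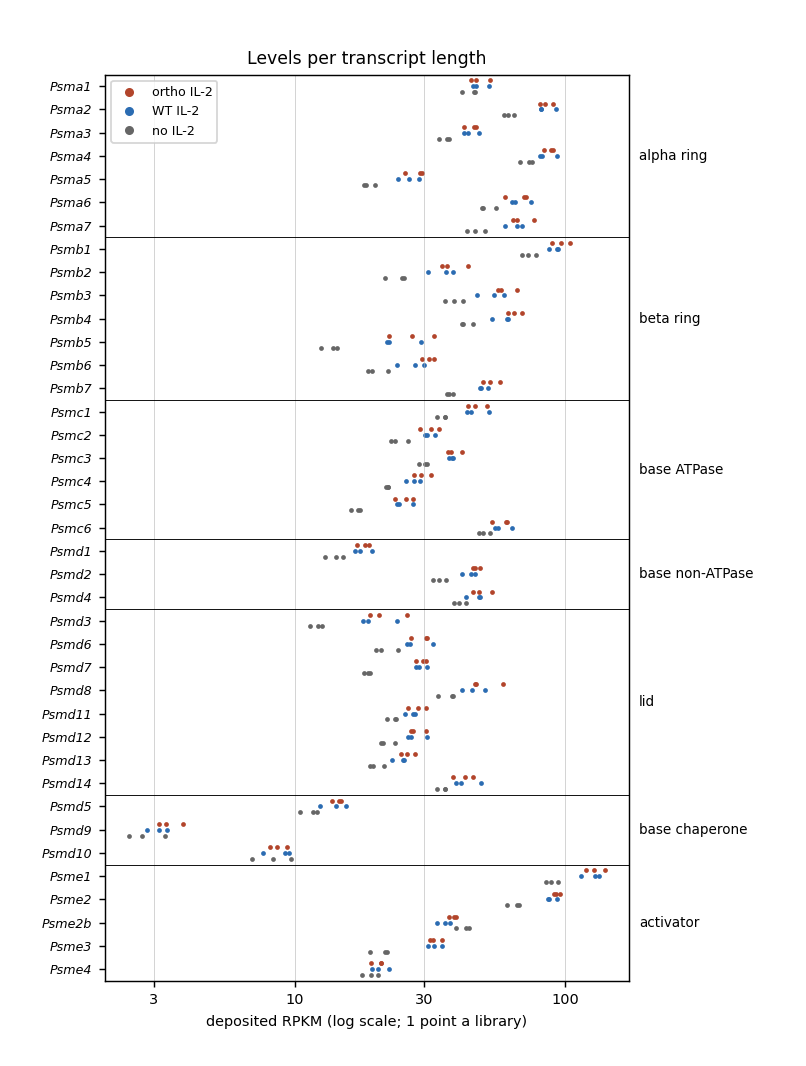
Deposited RPKM of 39 members on a log axis, 1 point a library, with ortho IL-2 above WT IL-2 above no IL-2 in each row. Group means run from 2.81 RPKM (Psmd9, no IL-2) to 129 RPKM (Psme1, ortho IL-2), and the base chaperones sit at the low end.

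The standard catalytic genes were set beside their immunoproteasome counterparts. Psmb8, Psmb9 and Psmb10, which replace Psmb5, Psmb6 and Psmb7 in the immunoproteasome, all rose, with log2 fold changes of 0.89, 0.61 and 0.96 for ortho IL-2 and 0.76, 0.47 and 0.85 for WT IL-2. The highest adjusted p of the 3 was 0.000456 for ortho IL-2 and 0.0011 for WT IL-2 (edgeR). Over all genes tested, 28.5% were called higher with ortho IL-2 and 25.0% with WT IL-2. Exons of Psmb9 overlap Tap1 and those of Psmb8 an antisense gene, both on the other strand. The ratio of Psmb10 to Psmb7 in RPKM was 0.379, 0.318 and 0.515 with ortho IL-2, 0.490, 0.335 and 0.323 with WT IL-2, and 0.234, 0.247 and 0.246 without IL-2. All 6 libraries with cytokine had a higher ratio than those without. The highest ratio of each cytokine group came from the library that stood apart, ortho IL-2 library 3 and WT IL-2 library 1. Psmb9 to Psmb6 averaged 2.85 ± 0.24 with ortho IL-2, 2.87 ± 0.11 with WT IL-2 and 2.41 ± 0.05 without IL-2, again without overlap. Psmb8 to Psmb5 averaged 6.89 ± 0.89 with ortho IL-2, 6.70 ± 0.65 with WT IL-2 and 6.13 ± 0.10 without IL-2, and here WT IL-2 library 1 lay within the no IL-2 range (SD, n = 3 each, given as a description).

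Between ortho IL-2 and WT IL-2, no member passed the test. Over all 10702 genes 0 were called (0%) by edgeR, and 149 had an unadjusted p under 0.05. Among the 40 members, 0 had an unadjusted p under 0.05 and 0 were called by DESeq2. Adjusted p-values ran from 0.909 to 0.999 (edgeR). The median log2 fold change of ortho IL-2 over WT IL-2 was -0.01, over members and over all genes alike.

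Among the 39 members without Psmb11, the 95% intervals of the log2 fold change lay between -0.36 and 0.38, that is between 0.781-fold and 1.30-fold. For Psmb5 the estimate was 0.10 with an interval of -0.18 to 0.38. For Psmb6 it was 0.14 (-0.02 to 0.30), and for Psme3 -0.07 (-0.16 to 0.03). For Psmb11 it was -0.59 (-1.83 to 0.64), the widest of all members.

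All 7 beta ring estimates were above 0, with a median of 0.09, and 5 of 7 alpha ring estimates were below 0, with a median of -0.05. These directions were not tested. Libraries did not overlap between the 2 cytokines for 4 members (4.65% of all genes). All libraries of Psmb4, Psmb6 and Psmd13 were higher with ortho IL-2 (2.42% of all genes), and those of Psme3 lower (2.23%). Psmb4 had 86.8, 87.3 and 86.3 CPM with ortho IL-2 and 82.9, 83.2 and 79.0 CPM with WT IL-2, with an interval of the log2 fold change of -0.02 to 0.19. Since the doses in IU/mL differed, these values describe the conditions used, not the cytokines at equal dose.

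**Figure D5:**
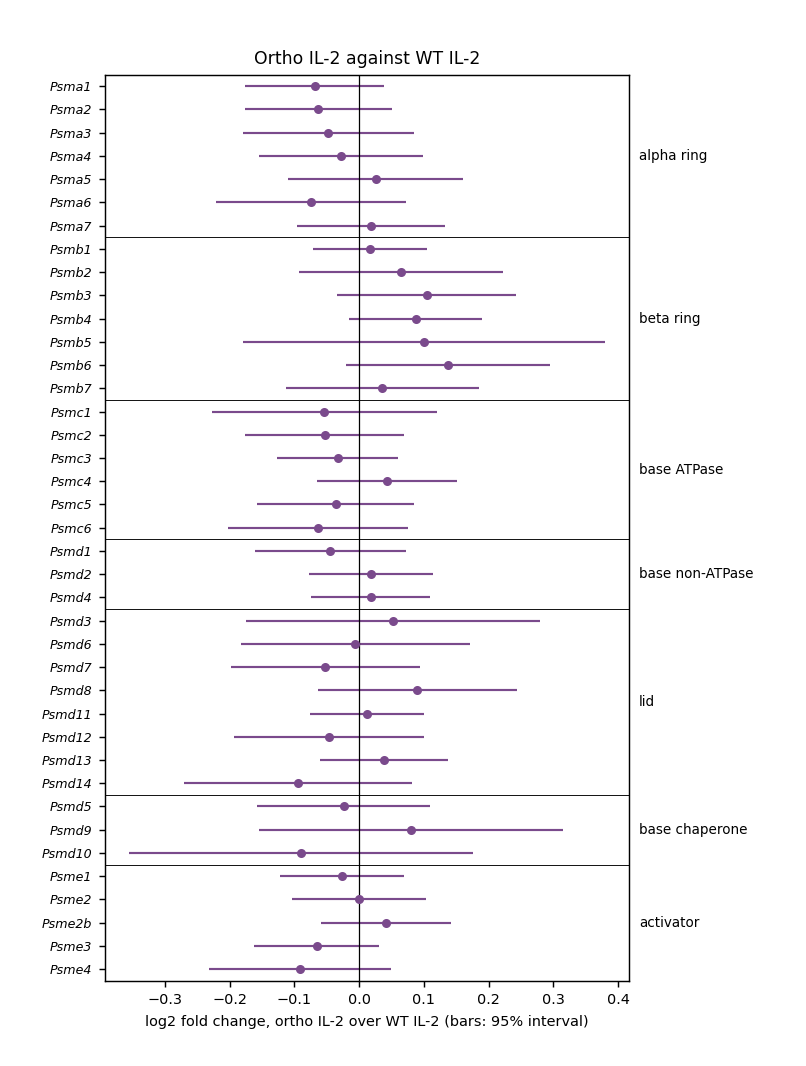
Log2 fold change of ortho IL-2 over WT IL-2 for 39 members by class, with 95% intervals from edgeR. All intervals cross 0. They span -0.36 to 0.38 at the widest, and the beta ring estimates all lie to the right of 0.

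Other genes of the pathway were taken from a list of 34, of which 33 were tested. With ortho IL-2, 14 rose, 5 fell and 14 did not pass, where 28.5% of all genes rose and 27.4% fell. With WT IL-2, 14 rose, 3 fell and 16 did not pass, where 25.0% of all genes rose and 22.9% fell. Without Psmb8, Psmb9 and Psmb10, 11 of 30 rose in each comparison. Of the 5 genes for core assembly, 4 rose in each comparison. Psmg1, a chaperone that starts the alpha ring, had 12.8, 13.1 and 12.9 CPM with ortho IL-2, 13.3, 13.3 and 13.1 CPM with WT IL-2 and 9.25, 8.15 and 8.07 CPM without IL-2. The cytokine libraries were clear of the others, with log2 fold changes of 0.60 (SE 0.08, edgeR adjusted p = 0.000135) for ortho IL-2 and 0.63 (SE 0.08, edgeR adjusted p = 0.000101) for WT IL-2, both against no IL-2. Pomp, which helps join the core from its 2 sides, had 0.23 for ortho IL-2 (SE 0.07) and 0.25 for WT IL-2 (SE 0.07) in log2 fold change (edgeR adjusted p = 0.015 for ortho IL-2 and 0.0105 for WT IL-2). Psmg3 did not pass, at 0.20 with ortho IL-2 and 0.21 with WT IL-2.

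Among cap partners, Adrm1 encodes a ubiquitin receptor and had 57.5, 54.0 and 68.5 CPM with ortho IL-2, 65.3, 54.2 and 52.8 CPM with WT IL-2 and 39.2, 43.2 and 39.8 CPM without IL-2. Its cytokine groups lay above the no IL-2 libraries, with log2 fold changes of 0.56 (SE 0.11, edgeR adjusted p = 0.00146) for ortho IL-2 and 0.50 (SE 0.11, edgeR adjusted p = 0.00336) for WT IL-2, both against no IL-2. The lid subunit gene Shfm1, at 0.15 for ortho IL-2 (SE 0.06) and 0.12 for WT IL-2 (SE 0.06), and the core inhibitor gene Psmf1, at 0.08 for ortho IL-2 (SE 0.06) and 0.05 for WT IL-2 (SE 0.06), did not pass. Ubqln4, the gene of a ubiquitin shuttle, had the largest rise of the list outside subunits and assembly genes. It had 41.5, 39.6 and 39.2 CPM with ortho IL-2, 39.4, 38.0 and 37.8 CPM with WT IL-2 and 24.0, 25.8 and 25.0 CPM without IL-2, with log2 fold changes of 0.69 for ortho IL-2 and 0.63 for WT IL-2. Vcp, the unfoldase that delivers substrates, had the largest fall in both comparisons, with 429.8 ± 5.34 CPM with ortho IL-2, 429 ± 15.5 CPM with WT IL-2 and 587 ± 15.9 CPM without IL-2 (SD, n = 3 each) and log2 fold changes of -0.45 for ortho IL-2 and -0.45 for WT IL-2 (edgeR adjusted p = 1.78e-05 for ortho IL-2 and 1.76e-05 for WT IL-2).

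Nfe2l1, the gene of NRF1, which drives proteasome genes when the protease is inhibited, had 89.9, 89.5 and 89.2 CPM with ortho IL-2, 89.8, 89.9 and 90.1 CPM with WT IL-2 and 74.3, 73.1 and 71.2 CPM without IL-2. All cytokine libraries exceeded the others, with log2 fold changes of 0.30 (SE 0.04, edgeR adjusted p = 0.000148) for ortho IL-2 and 0.30 (SE 0.04, edgeR adjusted p = 0.000136) for WT IL-2, both against no IL-2. Nfe2l2, the gene of NRF2, had 54.8 ± 3.41 CPM with ortho IL-2, 56.7 ± 3.42 CPM with WT IL-2 and 72.7 ± 2.46 CPM without IL-2 (SD, n = 3 each), and each library with cytokine was lower than those without. Its log2 fold changes were -0.41 (SE 0.06, edgeR adjusted p = 0.000416) for ortho IL-2 and -0.36 (SE 0.06, edgeR adjusted p = 0.00104) for WT IL-2, both against no IL-2. Among genes for NRF1 processing, Ddi2, the protease that cleaves NRF1, had -0.26 with ortho IL-2 and -0.26 with WT IL-2 (edgeR adjusted p = 0.000602 for ortho IL-2 and 0.000567 for WT IL-2). Under the authors' depth total its ortho IL-2 value was 0.02, below that fit's median of 0.29 over all genes. Ngly1, which removes sugars from NRF1, fell by 0.33 on the log2 scale with ortho IL-2 (edgeR adjusted p = 0.0238) and did not pass with WT IL-2 (-0.25, edgeR adjusted p = 0.0798).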

How the data were processed

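The deposited tables give, per the file headers, raw read counts and RPKM for 31682 transcripts. The submitters' processing notes name Bowtie2, TopHat2, SAMtools (0.1.8), bedtools (2.25.0), edgeR and the build mm10. What each tool did, the counter, the annotation release and any use of strand were not given in the sources used here, so reads of the 11 members whose exons overlap another gene cannot be told apart. The authors' RPKM values were divided by a depth larger than the reads in genes.

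The transcript with most reads stood for each symbol (4 members have several). A gene was tested if its RPKM reached 1 in 3 or more of the 9 libraries (10702 genes). Counts were scaled by TMM and fitted with edgeR 4.0.16 in R 4.3.3 (quasi-likelihood, group means, all libraries). P-values are two-sided and Benjamini-Hochberg adjusted over all genes tested, with a threshold of 0.05. SEs and 95% intervals follow from the F statistic. The fit was tested on simulated data. Alternatives used limma 3.58.1, DESeq2 1.42.0, other filters and scalings, GC offsets, covariates and left-out libraries. Leaving out WT IL-2 library 1 with ortho IL-2 library 3 was chosen after seeing the data. Gene coordinates are GRCm38.

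Members, lists and the rule for named genes were chosen with earlier results of these data known. The rule names members not called or called against their class. It gives library values for catalytic subunits, activators and each class's largest and smallest change with WT IL-2. Outside that rule, library values are also printed for Psma4, Psmb4, Psmd7, Psmd14, the overlapping gene 9930111J21Rik1 and some genes of the pathway list. Of the latter, Ubb and Uba1 were named outside the rule as well. A few genes of the pathway list are counted but not reported by name here.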

Additional observations from a re-analysis of the deposited data

How the results depend on the processing

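The leave-one-out fits gave 15 to 20 members higher and 2 to 4 lower with ortho IL-2, and 13 to 23 higher and 1 to 2 lower with WT IL-2. Over all 10702 genes these fits called 2462 to 3387 higher and 2284 to 3247 lower with ortho IL-2. With WT IL-2 they called 2173 to 2748 of all genes higher and 1895 to 2596 lower. Against 20 higher and 4 lower with ortho IL-2, the authors' depth total, limma on log2(RPKM + 1) and limma on log2(RPKM + 0.1) each gave 34 and 1, no filter and filterByExpr each gave 2 lower, and the share outside genes as a covariate gave 2 and 1. Against 20 higher and 1 lower with WT IL-2, the first 3 settings each gave 33 higher, the covariate gave 4 higher, and GC offsets, a fit of the 2 groups alone and the replicate block with GC offsets each gave 2 lower. Of all 10702 genes, the first 3 settings called 5599 to 5707 higher with ortho IL-2 and 4459 to 4630 with WT IL-2. The covariate called 925 higher with ortho IL-2 and 1217 with WT IL-2. Lower calls over all genes with ortho IL-2 were 3023 of 19806 with no filter and 3170 of 13824 with filterByExpr. With WT IL-2 the fit of the 2 groups alone called 2434 lower. DESeq2 gave 19 members higher and 4 lower with ortho IL-2, and 19 and 1 with WT IL-2. Over all genes it called 2988 higher and 3065 lower with ortho IL-2, and 2649 and 2620 with WT IL-2. Between ortho IL-2 and WT IL-2 each setting gave 0 calls.

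Some values with ortho IL-2 changed sign. In the order depth total, limma with 1 and limma with 0.1, log2 fold changes were 0.0201, 0.0150 and 0.0159 for Ddi2, 0.11, 0.10 and 0.10 for Psma1, 0.27, 0.27 and 0.27 for Psma4, 0.22, 0.21 and 0.22 for Psmc6, 0.26, 0.25 and 0.26 for Psmd14, 0.27, 0.26 and 0.27 for Psmd4, and 0.0918, 0.0878 and 0.0918 for Psme4. All 3 settings also raise the median of all genes with ortho IL-2, to 0.29, 0.25 and 0.28 in that order. With the depth total, each value listed above lay below that median. GC offsets gave 0.11 for Psma4, 0.30 for Psmc6 and 0.14 for Psmd14, and the replicate block with GC offsets 0.11, 0.30 and 0.14. With the covariate, Psmb11 was 0.97 for ortho IL-2 and 1.08 for WT IL-2. The cause of these sign changes was not tested beyond the shift of that median.

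Replicate numbers showed no clear pairing of the libraries. Over 9 pairs of libraries with the same number, deviations from group means correlated between -0.66 and 0.44, and 3 were over 0.1. Pairs with different numbers ran from -0.57 to 0.60. With 3 libraries a group, this check cannot exclude a pairing. A fit with the replicate block gave 19 members higher and 4 lower with ortho IL-2, and 19 and 1 with WT IL-2. Over all genes it called 2846 higher and 2806 lower with ortho IL-2, and 2515 and 2273 with WT IL-2. With GC offsets the block gave 26 members higher and 3 lower with ortho IL-2, and 26 and 2 with WT IL-2. All-gene counts were then 3123 higher and 3093 lower with ortho IL-2, and 3049 and 2863 with WT IL-2. At 16581624 reads or more per library, low genes such as Psma8 could not be judged.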

Other observations

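The TRiC chaperonin genes, whose product folds actin and tubulin, were mostly higher with cytokine. Of 8 subunit genes, 7 were higher and 0 lower in both comparisons with no IL-2, where 28.5% of all genes were called higher with ortho IL-2 and 25.0% with WT IL-2. They had a median log2 fold change of 0.28 for ortho IL-2 and 0.32 for WT IL-2. Cct4, named after its values were seen as the exception, did not pass, at -0.04 with ortho IL-2 and 0.02 with WT IL-2. Of 78 genes for cytosolic ribosomal proteins tested, ortho IL-2 had 12 higher and 1 lower (median log2 fold change 0.06), and WT IL-2 5 higher and 0 lower (median 0.03). Over all genes, 28.5% were higher and 27.4% lower for ortho IL-2, and 25.0% and 22.9% for WT IL-2. At an unadjusted p under 0.05, 22 ribosomal genes differed with ortho IL-2, against 6560 of all 10702 genes, and 9 with WT IL-2, against 5897. Their reads can be shared with pseudogenes.

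Ubb, a gene that encodes ubiquitin, had 644, 626 and 659.9 CPM with ortho IL-2, 618, 596 and 579 CPM with WT IL-2 and 601, 637 and 600.5 CPM without IL-2, with log2 fold changes of 0.07 for ortho IL-2 and -0.04 for WT IL-2, and each cytokine group overlapped the no IL-2 group. Uba1, the enzyme that activates ubiquitin, had 303, 294 and 317 CPM with ortho IL-2, 318, 286 and 297 CPM with WT IL-2 and 241, 253 and 249.7 CPM without IL-2. Every cytokine library was above the no IL-2 libraries, with log2 fold changes of 0.30 (SE 0.05, edgeR adjusted p = 0.000886) for ortho IL-2 and 0.28 (SE 0.05, edgeR adjusted p = 0.00146) for WT IL-2, both against no IL-2.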
